A study of Hordeum vulgare with 6 samples.

Results

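Light harvesting genes encode chlorophyll a/b binding proteins, the antenna proteins that hold chlorophyll in the thylakoid membrane of the chloroplast and pass the energy of absorbed light to the photosystems. The genes stand in the nucleus, and their proteins are made in the cytosol and imported into the chloroplast. In cereals they form a multigene family in which near copies often lie side by side on a chromosome. Those of the LHCII type belong to the main antenna of photosystem II.

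The 6 genes described here lie on barley chromosomes 1H and 6H, 3 on each, out of 39841 genes listed in the authors' deposited comparison of low-Pi with control shoots. They were taken by identifier: HORVU1Hr1G078380, HORVU1Hr1G088920, HORVU1Hr1G089180, HORVU6Hr1G016850, HORVU6Hr1G016880 and HORVU6Hr1G016890. The study names HORVU1Hr1G078380 and HORVU1Hr1G088920 as chlorophyll a/b binding proteins of LHCII type 1, and the other 4 as chlorophyll a/b binding proteins of the chloroplast. All of them come from the genes that the study itself selected as changed on these same samples, so that their calls and their direction are a description and not independent evidence. Values of the table are given on the genome build IBSC_v2, counted from 1.

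Shoots of the barley (Hordeum vulgare) line Rolap were harvested on day 23 from 3 low-Pi samples and 3 control samples. Low-Pi plants had only the phosphorus of the soil itself, 8 mg per kg. Control plants had the same soil with another 60 mg of phosphorus per kg, given as KH2PO4. The day length was 16 h and the temperature 22 °C in both groups, and each sample joined 3 plants of a single pot. A shoot holds many cell types, and in such a sample more cells of a type and more RNA per cell cannot be told apart. The added salt carried potassium as well as phosphate, and the effects of the 2 ions cannot be told apart. Of named transcripts that mark green tissue, the plastid gene psbA was at a level of 1387 and rbcL, the large subunit of Rubisco, at 51.7. Both are plastid genes, whose polyadenylated RNA is a minor form, and 9 of 20 listed plastid photosystem genes were at 0. Nuclear shoot markers were not checked, since the table pairs nuclear identifiers with no name. The nuclear names used below come from the study's changed genes.

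The table gives no value per library, so that neither the spread between the 3 samples of a group nor their depth is known. Its level is the higher of the 2 group means of a normalised signal, and for a gene that rose it belongs to the low-Pi samples. The log2 fold change, low-Pi over control, is the estimate of the authors' model and has no standard error. A control level is therefore not listed for these genes. Dividing the level by the fitted fold gives an implied control level, which is named as such at each value. A gene is called where the authors' negative binomial p-value stays under 0.05 after the Bonferroni adjustment over all listed genes.

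All 6 light harvesting genes were called higher in low-Pi shoots, where 0.207% of the 27022 tested genes were called higher (56 genes). The selection of these genes used this same contrast, so nothing is read from that count. Their summed level was 1497 in low-Pi shoots, against an implied sum of 373 in control shoots, a ratio of 4.01. The sum in low-Pi shoots made up 0.254% of the summed level of all listed genes. That total takes the higher of the 2 group means of each gene, so it mixes both groups and is not the total of low-Pi shoots. HORVU1Hr1G078380 stood apart from the other 5 genes, whose log2 fold changes lay between 1.75 and 2.04.

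HORVU1Hr1G078380 (1H, 520109884 to 520111240, plus strand) had a level of 206 in low-Pi shoots, against an implied 0.431 in control shoots. Its log2 fold change was 8.90, a fitted fold of 479, and its p-value was listed as 0, as for 14 genes of the table. It was the 279th highest of all listed genes by level and had the fifth highest log2 fold change of all tested genes. Among called genes only 2 had a higher log2 fold change. The gene supplied 13.8% of the summed level of the 6 genes in low-Pi shoots, but 0.115% of their implied sum in control shoots. Without it the remaining 5 genes summed to 1291 in low-Pi shoots, against an implied 373 in control shoots, a ratio of 3.46. The implied control level is under 1, and the table gives no interval for the fold.

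HORVU1Hr1G088920 (1H, 543063040 to 543159249, minus strand) had the highest level of the 6, at 411 in low-Pi shoots against an implied 122 in control shoots. Its log2 fold change was 1.75 (Bonferroni adjusted p = 0.0127, negative binomial model of the authors). The annotated span of this gene was 96.2 kb, while the median span of all listed genes was 2252 bp, and only 385 genes of the table were longer. HORVU1Hr1G089180 (1H, 543160944 to 543162130, minus strand) followed 1694 bp further along the chromosome. It had a level of 362 in low-Pi shoots, against an implied 105 in control shoots, with a log2 fold change of 1.79 (Bonferroni adjusted p = 0.00564, negative binomial model of the authors). The log2 fold changes of these close neighbours lay 0.04 apart, and their levels differed 1.13-fold.

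On 6H, HORVU6Hr1G016850 (38404516 to 38405685) had the lowest level of the 6, at 67.7 in low-Pi shoots against an implied 16.5 in control shoots. Its log2 fold change of 2.04 was the highest of the other 5 genes (Bonferroni adjusted p = 3.8e-04, negative binomial model of the authors). HORVU6Hr1G016880 (38471974 to 38473133) was at 101 in low-Pi shoots, against an implied 24.9 in control shoots, with a log2 fold change of 2.02 (Bonferroni adjusted p = 3.5e-05, negative binomial model of the authors). HORVU6Hr1G016890 (38483801 to 38487637) was at 350 in low-Pi shoots, against an implied 104 in control shoots, with a log2 fold change of 1.75 (Bonferroni adjusted p = 0.0131, negative binomial model of the authors). These 3 genes all lay on the plus strand within 1 stretch, with gaps of 66.3 kb between the first and the second and 10.7 kb between the second and the third.

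The order by level in low-Pi shoots was thus HORVU1Hr1G088920, HORVU1Hr1G089180, HORVU6Hr1G016890, HORVU1Hr1G078380, HORVU6Hr1G016880 and HORVU6Hr1G016850, with a 6.06-fold span from the highest to the lowest. Whether neighbours in this order differ beyond their spread cannot be said, because the spread is not in the table. HORVU1Hr1G078380, in the middle of this order, was last by implied control level. The 3 genes with the highest levels had the smallest log2 fold changes of the 6, at 1.75, 1.79 and 1.75. How reads that match several genes were assigned is not given in the sources used here. If the copies share sequence, their levels and fold changes are not separate measurements, and this was not tested.

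**Figure D1:**
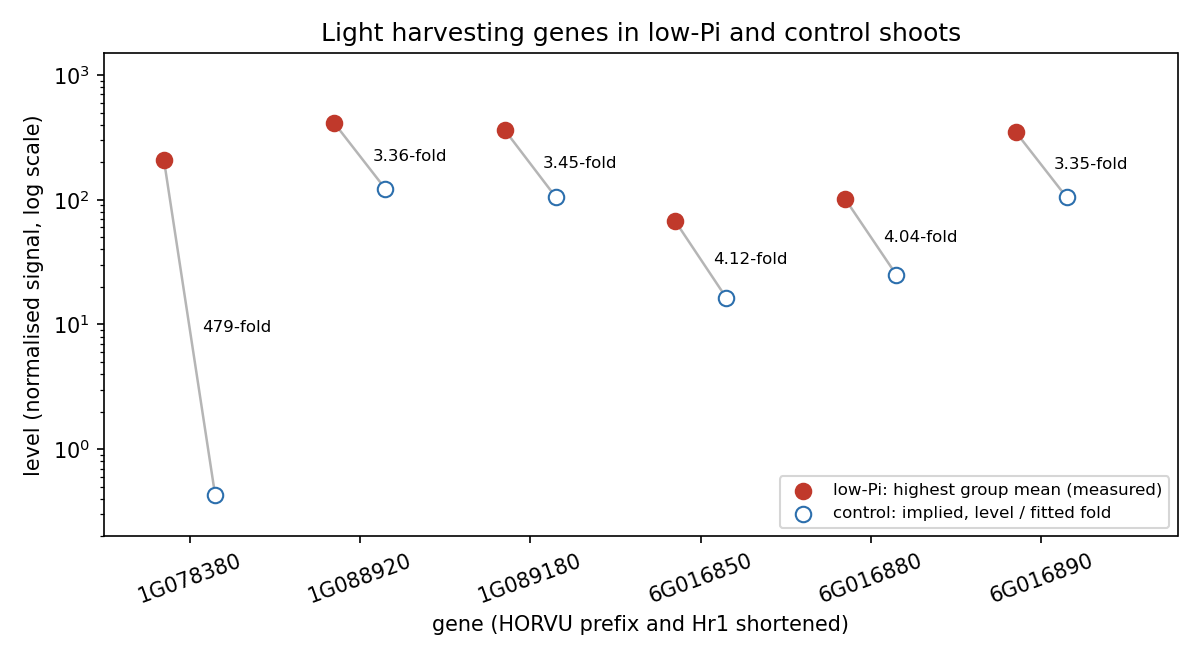
Level of each light harvesting gene on a log scale: filled red points are the low-Pi group means of the table, and open blue points are control levels implied by the fitted fold, which is printed beside each line. No error bars are drawn because the table holds no spread. HORVU1Hr1G078380, at 206 in low-Pi and an implied 0.431 in control shoots, is set apart from the other 5 genes, whose folds lie between 3.35 and 4.12.

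Upstream sequences were read from the study's supplementary table of 2000 bases before each changed gene, of which the 399 bases farthest from the gene were at hand. These were given for 5 of the 6 genes and not for HORVU6Hr1G016880. P1BS (GNATATNC) is the site bound by PHR factors of the phosphate starvation response, and the PHO element is ATGCCAT. Both strands were searched, and P1BS reads the same on either. The G-box CACGTG, a site in many light regulated promoters, was added after the sequences were seen. The 2 matches in these genes are shown with the match in capitals and 11 bases on each side, 5′ to 3′ on the strand of the gene.
HORVU1Hr1G078380, G-box: tacttgcatcgCACGTGtaagccaccaa
HORVU1Hr1G088920, P1BS: cattcctcacaGGATATCCataacttgtga

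The G-box match of HORVU1Hr1G078380 started 1838 bases before the annotated gene start, at chr1H:520108046-520108051 by the coordinates of the gene, and lay in no listed gene. The P1BS match of HORVU1Hr1G088920 started 1752 bases before that gene, at chr1H:543160994-543161001. This place is inside the annotated span of the next gene, HORVU1Hr1G089180. The far 306 of the 2000 upstream bases of HORVU1Hr1G088920 overlap its neighbour, which lies on the same strand, and 1694 bases between both genes remain. For the other 5 genes the 2000 upstream bases overlapped no listed gene.

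The far end is shown because its coordinates fall in the neighbouring gene. This stretch opens the upstream sequence of HORVU1Hr1G088920, from its base 2 to its base 73 (chr1H:543161177-543161248), and holds 23 codons that end in a stop codon, in capitals.
HORVU1Hr1G088920, far end: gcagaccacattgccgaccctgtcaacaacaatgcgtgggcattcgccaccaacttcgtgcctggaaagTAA
The other frames ran longer, for 27 and 33 codons before a stop, so the length of a run does not single out the coding frame. The codons were not compared with any protein sequence, and the overlap is given here from the coordinates.

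P1BS was present in the 399 bases of 1 of the 5 light harvesting genes, and in 8 of the 84 changed genes whose 399 bases hold no unknown base (9.52%). The PHO element was in 0 of the 5 and in 9 of the 84 (10.7%). The G-box was in 1 of the 5 and in 5 of the 84 (5.95%). The 84 include these 5 genes, and all 84 were selected by the study as changed. The shares are therefore no background of unchanged genes. A match is a description of letters and not a shown binding site, and the bases nearer to each gene were not searched here. These counts therefore do not say that a gene lacks a site: the study's own search of the longer sequences lists P1BS matches nearer to both HORVU1Hr1G088920 and HORVU6Hr1G016890. No run of 12 bases was shared between any of the 10 pairs of these 5 stretches.

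Within 100 kb of a light harvesting gene the table listed 18 other genes, 14 of them tested and 7 with a level of at least 1. One of the 18 was called higher and 0 were called lower. At an FDR under 0.05, where 0.503% of tested genes were higher, 2 of the 14 tested neighbours were higher and 0 lower. The 3 surroundings differed in their values, and the difference between them was not tested.

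Around HORVU1Hr1G078380 none of the 7 listed neighbours was called, at Bonferroni or at FDR, and 3 of the 6 tested ones had a log2 fold change above 0. HORVU1Hr1G078370, 6.35 kb to one side, had a level of 2.00, and its fold change was 0.39 on the log2 scale (unadjusted p = 0.218, negative binomial model of the authors). HORVU1Hr1G078390, 7.64 kb to the other side, had a level of 3.88 and a log2 fold change of -0.10 (unadjusted p = 0.761, negative binomial model of the authors). Farther off, HORVU1Hr1G078350 at a level of 127 and HORVU1Hr1G078410 at 66.3 had log2 fold changes of -0.41 and 0.45, in that order. Thus the 4 neighbours with a level of at least 1 lay within 0.45 of 0 on the log2 scale, where HORVU1Hr1G078380 was at 8.90.

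Around HORVU1Hr1G088920 and HORVU1Hr1G089180 the table listed 6 other genes, and both of those with a level of at least 1 had log2 fold changes near those of the light harvesting pair. HORVU1Hr1G088880 (1H, 542999388 to 543000572, plus strand), 62.5 kb away, was at 1169, the 56th highest level of the table, against an implied 356 in control shoots. On the log2 scale its fold change was 1.72, but its p-value was 7.15e-04 before adjustment and its FDR adjusted p was 0.0825 in the negative binomial model of the authors, so it was not called. HORVU1Hr1G088900 (1H, 543027975 to 543029183, plus strand), 33.9 kb away, was at 86.8 in low-Pi shoots, against an implied 30.6 in control shoots. The fold change of HORVU1Hr1G088900 was 1.50 on the log2 scale, with an FDR adjusted p of 0.00416 and a Bonferroni adjusted p of 0.604 in the same model. It passed the FDR and missed the Bonferroni adjustment.

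The spans of HORVU1Hr1G088880 and HORVU1Hr1G088900 were 1185 and 1209 bp, beside 1187 bp for HORVU1Hr1G089180. No source used here names either gene, and whether they encode antenna proteins was not tested. HORVU1Hr1G088930 and HORVU1Hr1G089150 lay inside the 96.2 kb span of HORVU1Hr1G088920 and were listed at 0, as was HORVU1Hr1G088890. The last of the 6, HORVU1Hr1G089240, had a level of 0.0379.

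Around the 6H genes the table listed 5 others, all on the far side of HORVU6Hr1G016890. HORVU6Hr1G016940 (6H, 38571660 to 38575557, minus strand), which the study lists as an uncharacterized protein, lay 84.0 kb away. It was at 92.4 in low-Pi shoots, against an implied 26.6 in control shoots. This gene's log2 fold change of 1.79 was called (Bonferroni adjusted p = 0.0031, negative binomial model of the authors) and lay between those of HORVU6Hr1G016880 and HORVU6Hr1G016890. The 4 genes between them had levels of at most 0.306 and were not called. With 3 light harvesting genes and HORVU6Hr1G016940, the stretch held 4 called genes.

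**Figure D2:**
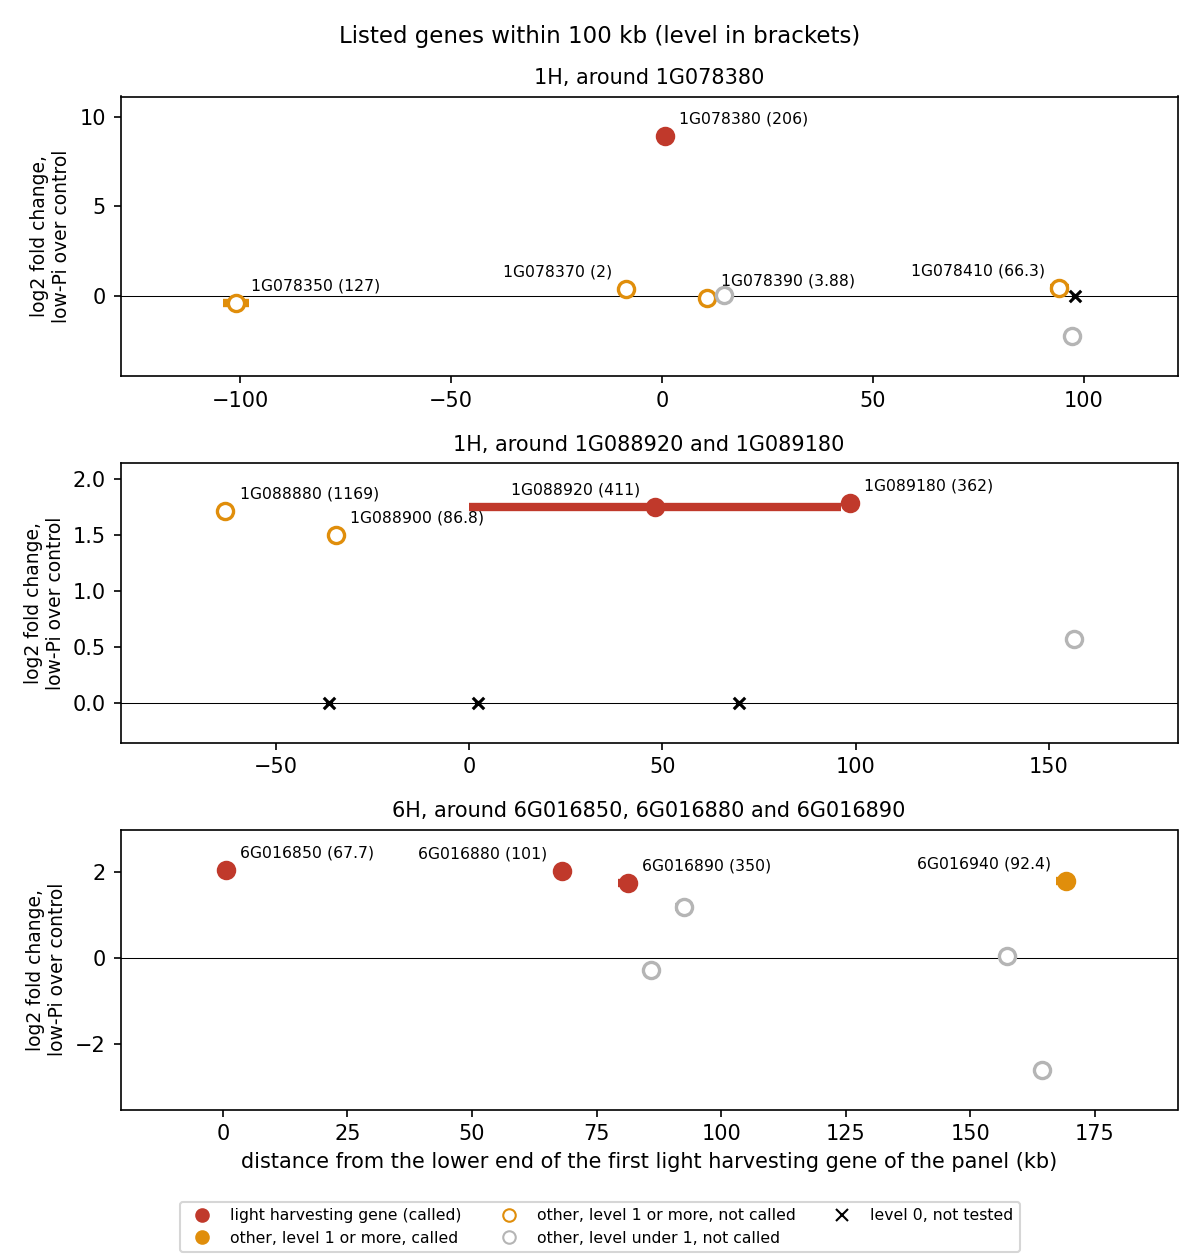
Log2 fold change (low-Pi over control) of listed genes within 100 kb, by distance in kb from the lower end of the first light harvesting gene of each panel. Bars show each gene's span, filled points are called genes, open points tested genes that were not called, crosses genes at level 0, and brackets hold levels. HORVU1Hr1G078380 at 8.90 stands among neighbours near 0, while HORVU1Hr1G088880 at 1.72 and HORVU1Hr1G088900 at 1.50 lie close to the 1H pair.

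Of the 6 light harvesting genes, 5 had another gene called higher within 100 kb, the exception being HORVU1Hr1G078380. The share was 0.408% among the 25742 tested genes placed on chromosomes 1H to 7H. Among the other 49 genes called higher and placed there it was 3, or 6.12%, and 1 of these 3 is HORVU6Hr1G016940, whose called neighbours are light harvesting genes. With the 6 not counted as neighbours it was 2 of 49, or 4.08%, against 0.357% of the tested genes. The 6 genes were named as sets on 1H and 6H with their calls known, so these shares are a description.

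Compared with genes of like abundance, the 6 changes were larger than most. The study selected these genes on this same contrast, so large changes are part of that selection and this comparison is a description. A level between those of HORVU6Hr1G016850 and HORVU1Hr1G088920 was reached by 701 tested genes, and 1.43% of these were called higher (10 genes) and 2 genes lower. The 10 include the 6 light harvesting genes themselves, and without them 4 of 695 genes were called higher, or 0.576%. The median log2 fold change of the 695 others was 0.22, with the middle 90% between -0.44 and 0.94, while over all tested genes the median was 0.03. So the abundant genes of this table stood above 0 as a group. After subtraction of the median of genes at 0.5 to 2 times each gene's own level, the 6 log2 fold changes lay between 1.43 for HORVU1Hr1G088920 and 8.64 for HORVU1Hr1G078380.

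Only 4 other genes in this range of levels had a log2 fold change at or above that of HORVU6Hr1G016890, and all 4 were called. HORVU4Hr1G002520, the ferredoxin FD1, an electron carrier after photosystem I, was at 72.9 with a log2 fold change of 14.20. That fitted fold of 18802 puts its implied control level under 1, and no interval is given for it. HORVU6Hr1G080750, nitrite reductase, which reduces nitrite to ammonium in the chloroplast, was at 89.7 with 1.98. The uncharacterized HORVU5Hr1G079600 was at 166 with 1.84, and the fourth was HORVU6Hr1G016940. The closest gene below was HORVU4Hr1G000240, at 1.54 on the log2 scale with an unadjusted p of 0.114 from the authors' negative binomial model. The called genes of the range that fell were HORVU6Hr1G008780, a papain-like cysteine proteinase with a log2 fold change of -2.17, and HORVU1Hr1G065150, a putative proteinase inhibitor with -2.19.

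**Figure D3:**
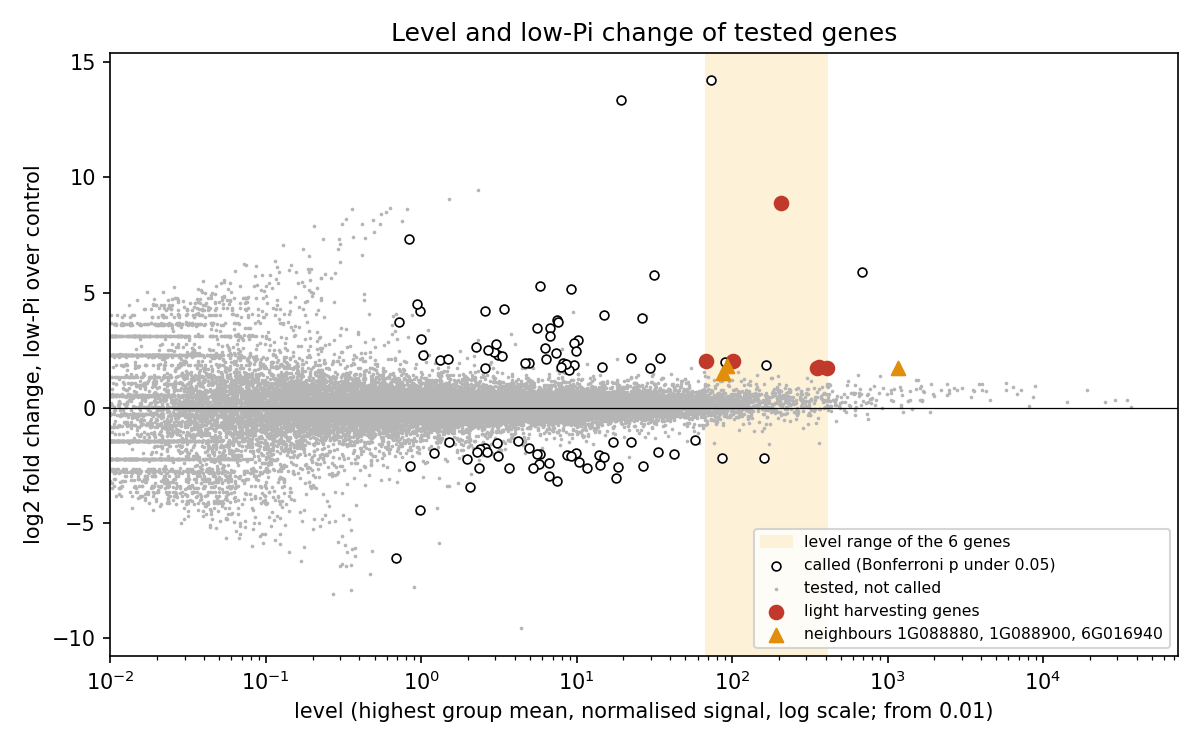
Level (highest group mean, log scale, shown from 0.01) and log2 fold change (low-Pi over control) of tested genes: grey points were not called, black circles were called, and the shaded band is the range of levels of the 6 light harvesting genes, drawn in red. Orange triangles are the neighbours HORVU1Hr1G088880, HORVU1Hr1G088900 and HORVU6Hr1G016940. The red points, selected by the study on this same contrast, lie above the grey cloud of the band, whose median is 0.22.

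Not all thylakoid genes of the study moved with the antenna genes. Its gene ontology listing places 8 changed genes in the chloroplast thylakoid, of which the 6 light harvesting genes rose and the other 2 fell, where 0.155% of tested genes were called lower (42 genes). HORVU2Hr1G038940, the photosystem II 10 kDa polypeptide, was at 8.60 in its higher group, control, and its log2 fold change was -2.04 (Bonferroni adjusted p = 0.00316, negative binomial model of the authors). HORVU2Hr1G115730, stress enhanced protein 2, known from Arabidopsis as a thylakoid relative of the antenna proteins, was at 22.3 in control shoots with a log2 fold change of -1.50 (Bonferroni adjusted p = 0.0342, negative binomial model of the authors). In control shoots HORVU2Hr1G115730 at 22.3 was above the implied control levels of HORVU6Hr1G016850 (16.5) and HORVU1Hr1G078380 (0.431), and HORVU2Hr1G038940 at 8.60 was above that of HORVU1Hr1G078380 only.

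Among the 6 further changed genes that the listing places in the chloroplast, 5 rose and 1 fell. Besides FD1 and nitrite reductase they included HORVU3Hr1G029200, a phosphoenolpyruvate carboxylase that fixes bicarbonate, with a log2 fold change of 1.73. A carotenoid cleavage dioxygenase, HORVU5Hr1G055740, rose with a log2 fold change of 2.29, while another, HORVU3Hr1G108100, had -1.43. HORVU7Hr1G053940 rose with 1.90. The study selected these genes on the same samples, so their counts are no independent evidence of a direction.

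The photosystem proteins that the antenna serves are in part encoded in the plastid. Of 20 plastid photosystem genes listed, 11 were tested, and 0 were called by the negative binomial model of the authors, at Bonferroni or at FDR, with 0 also at an unadjusted p under 0.05. The remaining 9 were listed at 0. Of the 9 tested genes with a level of at least 1, 7 had a log2 fold change above 0, and the median was 0.21. The highest was psbB, a core antenna protein of photosystem II, at 0.62 (unadjusted p = 0.133, negative binomial model of the authors). The lowest was psbJ, a small subunit of photosystem II, at -1.24 with a level of 2.77 (unadjusted p = 0.109, negative binomial model of the authors). psbA, which encodes the D1 reaction centre protein, had 0.33, and psbC and psbD had 0.17 and 0.03, in that order. These libraries were made from polyadenylated RNA, a minor form of plastid transcripts, so levels are not compared between plastid and nuclear genes. A p above the threshold does not show that these genes were unchanged.

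**Figure D4:**
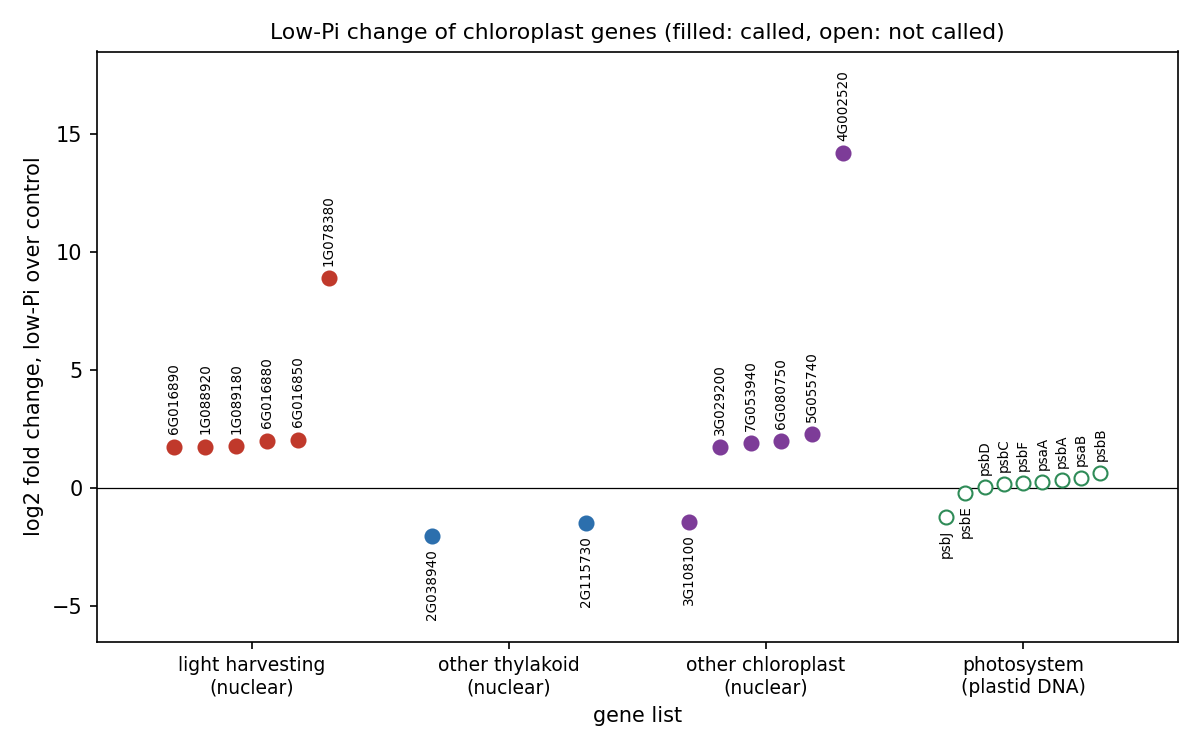
Log2 fold change (low-Pi over control) of the light harvesting genes, the other thylakoid and chloroplast genes of the study's listing, and plastid photosystem genes with a level of at least 1, with 1 point per gene, filled where called. The 6 light harvesting genes lie at 1.75 or above, both other thylakoid genes lie below 0, and the plastid genes lie between -1.24 and 0.62, none of them called.

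HORVU1Hr1G089620, on 1H at 544420120 to 544422477, is named in 2 ways in the study's sources. The list of PHO elements calls it an LHCII type 1 protein, while the table of changed genes calls it a caffeic acid O-methyltransferase, an enzyme of lignin synthesis. The gene was at 33.2 in control shoots and its log2 fold change was -1.92 (Bonferroni adjusted p = 5.38e-08, negative binomial model of the authors), opposite in sign to the 6 light harvesting genes. The change printed beside it in the list of PHO elements is not its own in the table but matches that of HORVU1Hr1G088920, so that entry may be mislabelled. The gene is not among the 6 identifiers taken, and its name is uncertain.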

How the data were processed

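Messenger RNA of 3 low-Pi and 3 control shoot samples was sequenced after selection of polyadenylated RNA. The authors mapped the reads to IBSC_v2 and used the negative binomial model of CLC Genomics Workbench for each gene. Its version, the strand setting and the treatment of reads with several matches were not found in the paper or the labels. The authors deposited 1 comparison table, and it has 0 columns of values per library, so that depth and replicate spread are unknown and no test was added. Its normalised signal, the higher of the 2 group means, was deposited by the authors without a unit. The methods name TPM, but the column sums to 589470, and it is called a level here. The log2 fold change deposited by the authors is low-Pi over control. The p-value deposited by the authors has FDR and Bonferroni adjustments, and the latter was checked to be the p-value times 39841. The columns of the authors' comparison are used as deposited because the table holds nothing else.

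The 6 genes were found by identifier. Implied control levels, gaps between annotated spans, medians by level and motif matches were computed with Python 3.11.15, numpy 2.4.6 and pandas 2.3.3, and figures were drawn with matplotlib 3.10.9. The distance, centring and motif steps were checked on simulated data. Named were all 6 genes, listed genes within 100 kb with a level of at least 1 or a call, the thylakoid genes, plastid photosystem genes that were called or had the highest or lowest log2 fold change, called genes at the level of the 6, and HORVU1Hr1G089620. Genes named beyond this rule (HORVU4Hr1G000240, neighbours listed at 0 or under 1, rbcL, psbA, psbC, psbD and the other chloroplast genes) were chosen after their values were seen. The genes and lists were chosen with earlier results of these data known. The RefSeq name table at hand is of another assembly and was not used.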

Additional observations from a re-analysis of the deposited data

How the results depend on the processing

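The 6 light harvesting genes were also called at an FDR under 0.05 and with the Bonferroni adjustment counted over tested genes only, and 5 of them have a level of at least 100. At a Bonferroni adjusted p under 0.001, 3 remained called (HORVU1Hr1G078380, HORVU6Hr1G016850 and HORVU6Hr1G016880). The median log2 fold change of the 6 was 1.90, or 1.66 after subtraction of the median at the same level and 1.87 after subtraction of the median over genes at a level of 1 or more. Listed neighbours numbered 18 within 100 kb, 9 within 50 kb, 22 within 200 kb, and 7 with a level of at least 1. Called neighbours numbered 1, against 2 at an FDR under 0.05. Chosen after seeing the data, 50 kb left 0 called neighbours and 200 kb left 1. Called genes at the level of the 6 numbered 12, 25 at an FDR under 0.05, 16 over the wider range of levels, and 6 without the light harvesting genes, a count added after seeing the data. The shares of called genes and of called neighbours without the 6 were added in the same way. The plastid photosystem genes had 0 calls under each alternative. No paired analysis was possible because the table holds no value per library, and leaving out a replicate could not be run for the same reason. Depth is unknown, so no interval could be given, and the p-values rest on 3 pots per group.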
